A study of Mus musculus with 4 samples.

Results

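Guanylin signalling and Cftr were examined through 5 genes, Guca2a, Guca2b, Gucy2c, Prkg2 and Cftr, chosen by name as the hormones, receptor, kinase and channel of one pathway, out of 20962 genes with exon blocks in the mm9 table of the study. The choice was made with earlier results of these data known. All 5 were found by symbol, and all 5 were present in every library. The study sequenced RNA of mouse small intestine and colon on the SOLiD platform, in which a read is a series of colors that each encode a pair of neighbouring bases. Tissue of C57BL/6 mice, 9 to 10 weeks old by the study's methods, gave 4 libraries, 1 for each tissue and protocol. The cDNA fragmented small intestine and cDNA fragmented colon libraries were made by SMART synthesis, in which cDNA of polyadenylated RNA is primed with oligo-dT, amplified and then broken. The ribosomal RNA-depleted small intestine and ribosomal RNA-depleted colon libraries were made by breaking RNA before adaptors were ligated in a set direction. Their labels give depletion of ribosomal RNA, whereas the study's methods describe polyadenylated RNA for this kit, and the labels are followed here. They also hold fewer reads than the RNA fragmented libraries the study describes, so it is not certain that its account of tissue regions and mice covers them. Whole tissue was used, jejunum for small intestine and distal colon for colon by the study's methods, so epithelium, muscle and all other layers were mixed, and the study describes both tissues as coming from the same individuals, without giving the mice behind each library.

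Guanylin, the product of Guca2a, and uroguanylin, the product of Guca2b, are small peptides that intestinal epithelium secretes into the lumen. They bind guanylate cyclase C, the product of Gucy2c, on the apical membrane, and this receptor then makes cyclic GMP. Cyclic GMP activates the membrane-bound kinase encoded by Prkg2, which phosphorylates the chloride channel Cftr, so that chloride, bicarbonate and water leave the cell. Heat-stable toxins of diarrhoea-causing bacteria act through the same receptor.

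The hormones are cut from the C-terminal end of their precursors, and the exonic bases that encode this end show how alike the genes are and that their reads can be told apart. The last 15 codons of each coding part were read from the mm9 genome at the GENCODE coding positions, both within the third and last exon. Guca2a lies on the plus strand at chr4:119311833-119311877, and Guca2b on the minus strand at chr4:119329400-119329444. Both are printed 5′ to 3′ on the coding strand with the cysteine codons in capitals.
Guca2a: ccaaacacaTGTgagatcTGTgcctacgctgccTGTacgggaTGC
Guca2b: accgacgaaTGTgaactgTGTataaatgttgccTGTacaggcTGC
The 4 cysteine codons of Guca2a stood at the same places as the 4 of Guca2b, and 29 of 45 bases and 5 of 15 codons were identical. Over all exon blocks, the closest pair of 35-base stretches of the genes differed at 11 bases and at 12 colors, while a read could have at most 3 color mismatches to be placed. Reads overlapping these 15 codons numbered 5447 for Guca2a and 4559 for Guca2b in cDNA fragmented small intestine. In cDNA fragmented colon they numbered 61623 and 107. They numbered 89 and 99 in ribosomal RNA-depleted small intestine, and 1134 and 6 in ribosomal RNA-depleted colon. Over the hormone-coding end both genes thus gave reads of like number in small intestine, whereas in colon the reads of Guca2b were few.

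Uniquely placed reads numbered 22484041 in cDNA fragmented small intestine, 24798934 in cDNA fragmented colon, 2035386 in ribosomal RNA-depleted small intestine and 3478387 in ribosomal RNA-depleted colon. The ribosomal RNA-depleted values are therefore less precise. With 1 library per tissue and protocol, no test was possible within a protocol and no difference can be set against the variation between mice. The intervals given are exact 95% intervals of counting error only, and reads amplified by PCR are not independent molecules. Levels are given as RPKM, uniquely placed reads on exon blocks per 1000 exonic bases and 1000000 uniquely placed reads. A gene was called where its RPKM reached 3 times the RPKM of the other tissue plus a penalty of 1. In the cDNA fragmented protocol 2 of the 5 genes, Guca2b and Prkg2, were called higher in small intestine, against 2.81% of the 15189 genes present in both libraries. Guca2a alone was called higher in colon, against 3.25%. In the ribosomal RNA-depleted protocol 1 gene, Guca2b, was called higher in small intestine, against 3.86% of 13149 genes, and 1 gene, Guca2a, higher in colon, against 6.40%. Since the 5 genes were chosen with earlier results of these data known, nothing about the pathway is read from these shares. Other scalings of the libraries moved the ratio of every gene alike. Size factors by the median of ratios lowered the log2 ratio of colon to small intestine by 0.40 and 0.34 in the cDNA fragmented and the ribosomal RNA-depleted protocol, and the calls in the cDNA fragmented protocol then became 561 for small intestine and 316 for colon in place of 427 and 494. The calls of the ribosomal RNA-depleted protocol became 704 and 509 in place of 508 and 841.

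Over both protocols, the mean tissue difference was tested by limma on log2(RPKM + 1) in the 4 libraries with protocol as a block. This fit was added after seeing the data, and since it leaves 1 residual degree of freedom, the prior degrees of freedom were held at 4. Of 12905 genes present in all libraries, 1.16% were past an adjusted p of 0.05 as higher in small intestine and 0.852% as higher in colon. Guca2b was the one gene of the 5 among them, with a mean log2 ratio (colon over small intestine) of -5.60 ± 0.36 (SE, limma adjusted p = 0.0141) and the same direction in both protocols. Guca2a, at 2.81 ± 0.48, was higher in colon in both protocols but missed the threshold (limma adjusted p = 0.0699). With prior degrees of freedom estimated from the data it passed (limma adjusted p = 0.000388), so its call depended on this setting. Gucy2c, at -0.42 ± 0.35 (limma adjusted p = 0.554), Prkg2, at -1.07 ± 0.48 (limma adjusted p = 0.322), and Cftr, at -0.01 ± 0.36 (limma adjusted p = 0.992), did not pass, which does not show that they were equal. The spread behind these values is that of tissue differences between protocols, not between mice.

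**Figure D1:**
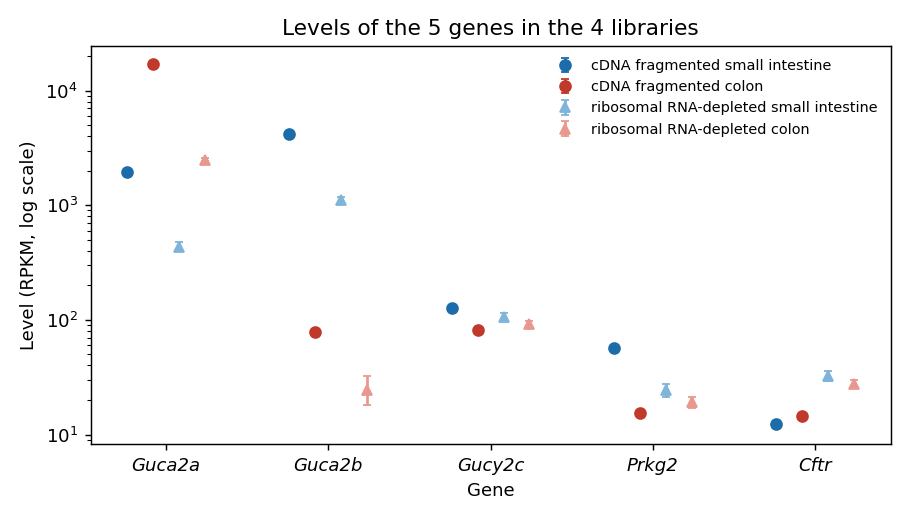
Levels of the 5 genes in the 4 libraries, as RPKM on a log scale, with 1 point per library and bars for the exact 95% interval of counting error. Guca2a was highest in colon (16974 RPKM, cDNA fragmented) and Guca2b in small intestine (4201 RPKM), while Gucy2c lay between 81.0 and 126 RPKM in all libraries.

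Guca2a (ENSMUSG00000023247.2), which encodes guanylin, has 3 exon blocks with 560 exonic bases at chr4:119310337-119312070. Its level was 1965 RPKM (24745 reads) in cDNA fragmented small intestine and 16974 RPKM (235722 reads) in cDNA fragmented colon. Ribosomal RNA-depleted small intestine had 435 RPKM (496 reads) and ribosomal RNA-depleted colon 2487 RPKM (4844 reads). The gene was abundant in all libraries and far more so in colon, where only 1 gene had a higher RPKM in the cDNA fragmented library (rank 2). The ratio of colon to small intestine was 8.64 (8.52 to 8.75) in the cDNA fragmented protocol and 5.72 (5.21 to 6.28) in the ribosomal RNA-depleted protocol. With 1 RPKM added to each level, ratios higher than that of Guca2a were seen for 0.764% and 1.94% of the genes present in both libraries. Counted by start points, the distinct bases and strands at which reads begin, the ratios were 0.969 and 1.54, without a call in either protocol. Possible start points were counted on both strands. Guca2a used 81.7% and 82.9% of them in the cDNA fragmented libraries of small intestine and colon, near the ceiling of this measure. It used 8.66% and 22.8% in the ribosomal RNA-depleted libraries. All reads of Guca2a lay on the strand of the gene there, so these shares understate how near those libraries were to the ceiling.

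In the cDNA fragmented protocol the 3 exon blocks of Guca2a gave nearly one ratio, from 8.49 in the last to 8.89 in the first. In the ribosomal RNA-depleted protocol the first block, of 94 bases, gave 2.65 (2.21 to 3.18) and the others 7.84 and 6.79. The first block also held the most frequent read start of ribosomal RNA-depleted small intestine, at the first base of the start codon. The 35 bases from there, at chr4:119310356-119310390 on the plus strand, are shown since 83 of 496 reads (16.7%) began at this one base, with the start codon in capitals.
Guca2a: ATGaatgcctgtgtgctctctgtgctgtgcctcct
In ribosomal RNA-depleted colon 292 of 4844 reads began there, and in the cDNA fragmented libraries 19 of 24745 and 194 of 235722. Without the reads from this base the ratio was 3.39 (2.60 to 4.49) for the first block and 6.45 (5.83 to 7.15) for the whole gene. Such piles of reads at single bases were part of the ribosomal RNA-depleted libraries for both hormones, with 10.8% to 17.6% of the reads of a library at its most frequent start, against at most 1.04% in the cDNA fragmented libraries.

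Guca2b (ENSMUSG00000032978.8), which encodes uroguanylin, has 3 exon blocks with 600 exonic bases at chr4:119329208-119331550. The genes of both hormones are neighbours on opposite strands, with 17137 bases between their exon blocks. Guca2b reached 4201 RPKM (56680 reads) in cDNA fragmented small intestine and 77.9 RPKM (1159 reads) in cDNA fragmented colon. It reached 1117 RPKM (1364 reads) in ribosomal RNA-depleted small intestine and 24.4 RPKM (51 reads) in ribosomal RNA-depleted colon. It was among the most abundant genes of small intestine, at rank 20 and 37, and at rank 1204 and 3033 in colon. Small intestine exceeded colon 53.9-fold (50.9 to 57.2) in the cDNA fragmented and 45.7-fold (34.6 to 61.7) in the ribosomal RNA-depleted protocol. With 1 RPKM added to each level, only 0.336% and 0.335% of the genes present in both libraries had a lower ratio of colon to small intestine. By start points the ratio was 0.538 in the cDNA fragmented protocol, without a call, and 0.0822 in the other, where the call stood. Guca2b used 77.2% of its possible start points in cDNA fragmented small intestine and 43.5% in cDNA fragmented colon, so that this measure was near its ceiling and could not have shown a 53.9-fold difference there. In these bulk samples fewer cells that make a transcript and less of it per cell cannot be told apart. All 3 exon blocks showed the difference in the cDNA fragmented protocol, with ratios of colon to small intestine between 0.0169 and 0.0200.

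The ratio of the hormones within a library does not depend on the library total. Guca2a over Guca2b was 0.468 (0.461 to 0.475) in cDNA fragmented small intestine and 0.390 (0.351 to 0.432) in ribosomal RNA-depleted small intestine, as RPKM. In colon it was 218 (206 to 231) and 102 (77.3 to 137). By start points it was 1.06 and 0.541 in small intestine and 1.90 and 10.1 in colon, but in cDNA fragmented small intestine Guca2a used 81.7% and Guca2b 77.2% of their possible start points, which holds that ratio near 1. Without the exon block with most reads it was 306 and 55.3 in colon. By reads Guca2a made up 31.9% and 28% of the summed RPKM of both hormones in small intestine, and 99.5% and 99.0% in colon. The summed RPKM was 6167 in small intestine and 17052 in colon in the cDNA fragmented protocol, and 1552 and 2511 in the ribosomal RNA-depleted protocol. Colon exceeded small intestine 2.77-fold and 1.62-fold in this sum, which is less than for Guca2a alone. By reads over all exonic bases Guca2b thus stood above Guca2a in small intestine and far below it in colon in both protocols. Over the last 15 codons alone, Guca2a had more reads than Guca2b in cDNA fragmented small intestine (5447 and 4559). In ribosomal RNA-depleted small intestine the numbers were near each other (89 and 99).

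**Figure D2:**
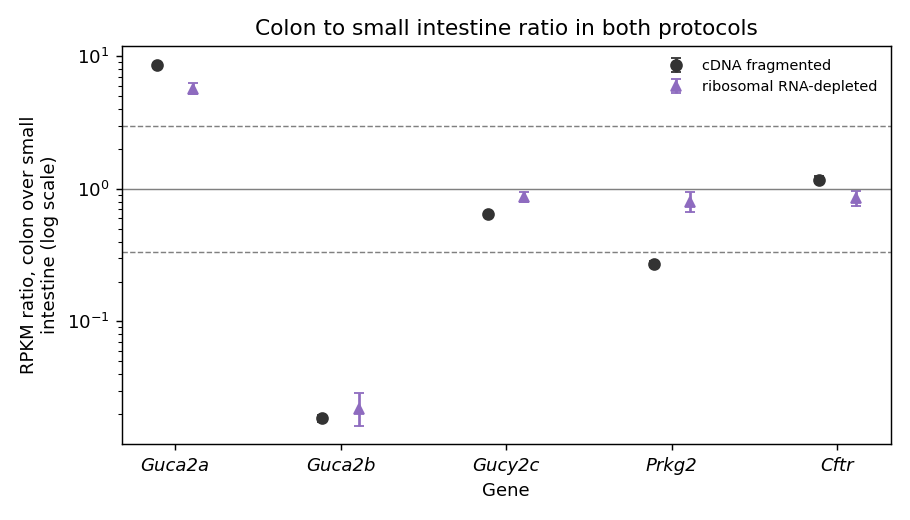
Ratio of colon to small intestine in RPKM for each gene, on a log scale, in the cDNA fragmented (circles) and ribosomal RNA-depleted (triangles) protocol, with exact 95% intervals of counting error. The solid line marks a ratio of 1 and the dashed lines a 3-fold difference. Guca2a (8.64 and 5.72) and Guca2b (0.0185 and 0.0219) lie beyond the dashed lines in both protocols, Prkg2 in one.

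Gucy2c (ENSMUSG00000042638.8), the receptor, has 27 exon blocks with 3936 exonic bases on the minus strand at chr6:136645805-136730263. Its level was 126 RPKM (11165 reads) in cDNA fragmented small intestine, 81.0 RPKM (7907 reads) in cDNA fragmented colon, 107 RPKM (856 reads) in ribosomal RNA-depleted small intestine and 92.2 RPKM (1263 reads) in ribosomal RNA-depleted colon. The receptor was thus found at 81.0 to 126 RPKM in every library, and it was not called. With 1 RPKM added to each level, its ratio of colon to small intestine was below that of most genes present in both libraries. Higher ratios were seen for 90.1% of them in the cDNA fragmented and 71.2% in the ribosomal RNA-depleted protocol. Small intestine exceeded colon 1.56-fold (1.51 to 1.60) and 1.16-fold (1.06 to 1.26), but with scaling by epithelial markers the direction in the cDNA fragmented protocol turned to a ratio of colon to small intestine of 1.23, or 0.590 with the markers without Krt20. In the cDNA fragmented protocol 26 of its 27 exon blocks had at least 20 reads in both libraries, and all 26 were lower in colon, with ratios from 0.372 in block 9 to 0.962 in block 24, whose interval (0.822 to 1.13) includes 1. As many reads were found on 12 blocks in the ribosomal RNA-depleted protocol, with ratios from 0.510 to 1.46, of which 4 were above 1. GENCODE lists 2 coding transcripts that fit these blocks, and 1 of them lacks block 14, of 72 bases. Block 14 held 219 and 143 reads in the cDNA fragmented and 16 and 39 reads in the ribosomal RNA-depleted libraries of small intestine and colon, so bases found only in the longer transcript were read in both tissues.

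The hormones were more abundant than their receptor except for Guca2b in colon. Guca2b over Gucy2c was 33.3 in cDNA fragmented and 10.4 in ribosomal RNA-depleted small intestine, as RPKM, and 0.962 (0.903 to 1.02) and 0.265 (0.196 to 0.350) in colon. Guca2a over Gucy2c was 15.6 and 4.07 in small intestine, and 209 and 27.0 in colon. The receptor also stood above the kinase and the channel in all 4 libraries. Gucy2c over Prkg2 ranged from 2.22 to 5.26, and Gucy2c over Cftr from 3.28 to 10.2.

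Prkg2 (ENSMUSG00000029334.7) encodes the cyclic GMP-dependent kinase of the brush border and has 19 exon blocks with 4696 exonic bases on the minus strand at chr5:99358792-99466098. Its level was 56.8 RPKM (6000 reads) in cDNA fragmented small intestine and 15.4 RPKM (1794 reads) in cDNA fragmented colon, and 24.3 RPKM (232 reads) in ribosomal RNA-depleted small intestine and 19.2 RPKM (313 reads) in ribosomal RNA-depleted colon. Only cDNA fragmented small intestine stood apart from the other libraries. Small intestine exceeded colon 3.69-fold (3.50 to 3.89) in the cDNA fragmented protocol, which was called, and 1.27-fold (1.06 to 1.51) in the ribosomal RNA-depleted protocol, which was not. Scaled by epithelial markers, the cDNA fragmented ratio of colon to small intestine became 0.519 and the call was lost, but with the same markers without Krt20 it was 0.249 and the call stood. By start points it was 0.455, without a call.

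The excess of cDNA fragmented small intestine lay in the last exon block, of which 93 of 2333 bases are coding. This block held 5801 of the 6000 small intestine reads and 1595 of the 1794 colon reads, and its ratio of colon to small intestine was 0.249 (0.236 to 0.264). The other 2 blocks with at least 20 reads in both libraries had ratios above 1, with 2.27 (1.42 to 3.72) in block 15 and 1.12 (0.716 to 1.75) in block 14. By the centre of each read, the 2286 coding bases held 227 small intestine and 225 colon reads, a ratio of 0.899 (0.744 to 1.08) whose interval includes 1. The 2410 noncoding bases held 5773 and 1569 reads, a ratio of 0.246 (0.233 to 0.261). The coding ratio of the ribosomal RNA-depleted protocol was 0.809 (0.616 to 1.07) and the noncoding ratio 0.776 (0.619 to 0.975). Coding and noncoding bases of Prkg2 thus differed in the cDNA fragmented protocol beyond counting error, while their intervals overlapped in the other. Smaller gaps, with intervals that did not overlap, were found in the cDNA fragmented protocol for Guca2a (9.20 and 7.46), Guca2b (0.0200 and 0.0157) and Gucy2c (0.618 and 0.713). For Cftr the intervals overlapped narrowly there, with 1.069 (0.976 to 1.171) in coding and 1.272 (1.166 to 1.389) in noncoding bases. Such an overlap does not show that both parts had the same ratio. In the ribosomal RNA-depleted protocol the intervals of Guca2a did not overlap either (4.85 and 6.73). However, 83 of its 268 coding reads in small intestine and 292 of 2220 in colon began at the first base of the start codon. Piled-up reads may not be independent counts, and the gap was not computed without them.

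Reads of cDNA fragmented small intestine were in excess along nearly the whole noncoding stretch of the last block. Of 11 consecutive windows of 200 bases after the last amino acid codon, all 11 were lower in colon, and the interval excluded 1 in 10. In the first window small intestine exceeded colon 1.35-fold (71 and 58 reads). In the others the factor ranged from 2.73 to 9.25. Of the same windows in the ribosomal RNA-depleted protocol, 8 were lower and 3 higher in colon, and the interval excluded 1 in 1 window. Exonic bases on the 5′ side of the transcript midpoint held 3.32% of the reads in cDNA fragmented small intestine and 11.1% in cDNA fragmented colon, against 39.2% and 36.1% in the ribosomal RNA-depleted libraries. The gap between the last block and the other blocks was set beside that of all genes with at least 20 reads in both parts and both libraries. The log2 ratio of the last block minus that of the other blocks was -1.86 for Prkg2, with a median of -0.04 over 8060 genes, of which 19 (0.236%) had a lower value. The value was 0.19 in the ribosomal RNA-depleted protocol, with a median of -0.15 over 3628 genes. The cDNA fragmented libraries carry no strand information, so that RNA from the opposite strand of this block cannot be told apart there, whereas all 232 and 313 reads of the ribosomal RNA-depleted libraries lay on the strand of Prkg2.

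**Figure D3:**
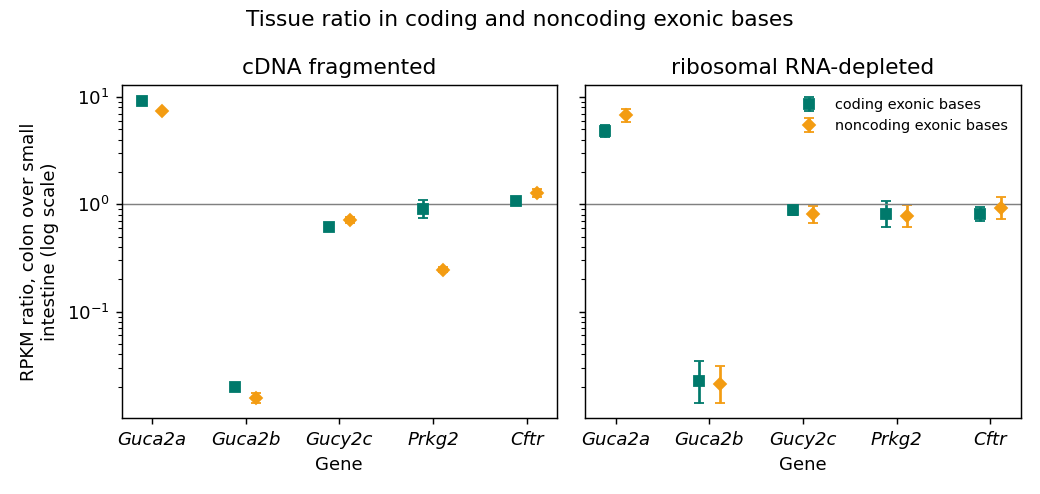
Ratio of colon to small intestine in coding (squares) and noncoding (diamonds) exonic bases of each gene, on a log scale, with exact 95% intervals of counting error, for both protocols. For Prkg2 in the cDNA fragmented protocol the coding ratio was 0.899 and the noncoding ratio 0.246, the widest gap among the 5 genes in either protocol.

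**Figure D4:**
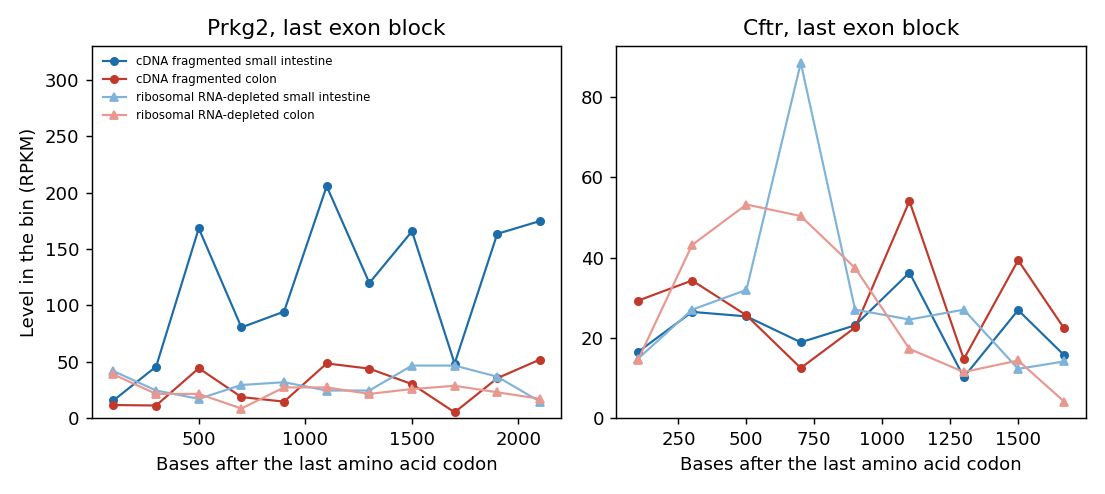
Level in RPKM in consecutive windows of the last exon block of Prkg2 and Cftr, against the distance in bases from the last amino acid codon, with 1 line per library (windows of 200 bases, the last window of Cftr shorter). The line of cDNA fragmented small intestine lies above that of cDNA fragmented colon in all 11 windows of Prkg2, while the lines of Cftr cross.

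Cftr (ENSMUSG00000041301.8), the chloride channel, has 27 exon blocks with 6304 exonic bases on the plus strand at chr6:18120687-18272769. Its level was 12.4 RPKM (1758 reads) in cDNA fragmented small intestine, 14.5 RPKM (2270 reads) in cDNA fragmented colon, 32.6 RPKM (418 reads) in ribosomal RNA-depleted small intestine and 27.6 RPKM (605 reads) in ribosomal RNA-depleted colon. Levels were higher in the ribosomal RNA-depleted libraries, 2.63-fold in small intestine and 1.90-fold in colon. The ratio of colon to small intestine was 1.17 (1.10 to 1.25) in the cDNA fragmented and 0.847 (0.746 to 0.962) in the ribosomal RNA-depleted protocol, so the direction differed between protocols. The cDNA fragmented ratio depended on the scaling, with 0.885 by size factors from the median of ratios, 2.24 by epithelial markers and 1.08 by the same markers without Krt20. Cftr was not called in either protocol. In coding bases the ratio was 1.07 (0.976 to 1.17) in the cDNA fragmented protocol, an interval that includes 1, and 1.27 (1.17 to 1.39) in noncoding bases. Of 14 exon blocks with at least 20 reads in both cDNA fragmented libraries, 8 had a ratio above 1, and the ratios ranged from 0.533 to 1.81. Exonic bases on the 5′ side of the transcript midpoint held 23.3% and 20.5% of the reads in the cDNA fragmented libraries of small intestine and colon, against 50.7% and 48.8% by the other protocol.

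The order of kinase and channel depended on the protocol. Prkg2 over Cftr, as RPKM, was 4.58 (4.34 to 4.83) in cDNA fragmented small intestine and 1.06 (0.997 to 1.13) in cDNA fragmented colon, where they did not differ beyond counting error. It was 0.745 (0.632 to 0.877) and 0.694 (0.604 to 0.797) in the ribosomal RNA-depleted libraries of small intestine and colon. In the coding bases alone Prkg2 stood at 4.42 and 3.97 RPKM and Cftr at 8.82 and 9.42 RPKM in the cDNA fragmented libraries of small intestine and colon, so that Cftr was then higher in both tissues.

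In the ribosomal RNA-depleted libraries, which keep the strand, reads on the strand of the gene made up 99.7% to 100% of the reads of each of the 5 genes, against 98.5% over all genes. The 4 reads on the opposite strand of Guca2b in small intestine and 1 read on that of Gucy2c were the only such reads, and Guca2a and Guca2b, though on opposite strands, do not share exon blocks. Placements on exon-exon junctions were not used to describe splicing. Only 7.19% to 8.52% of them over all genes had at least 10 bases on both sides of the junction, and for the 5 genes these were 43, 37, 5 and 11 reads in the order of the libraries above.

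The libraries carried the markers of their labelled tissues. The summed level of 8 small intestinal enterocyte markers was 45142 and 11283 RPKM in small intestine and 4578 and 591 RPKM in colon, in the cDNA fragmented and ribosomal RNA-depleted protocol. That of 6 colon surface cell markers was 476 and 207 RPKM in small intestine, where Car1 was at 0 in the cDNA fragmented library, and 56184 and 7757 RPKM in colon. Both lists therefore moved with the hormones, and their part in these results was not tested. The summed level of 9 epithelial markers, none at 0, was 10063 and 4705 RPKM in small intestine and 5561 and 6455 RPKM in colon, so that its direction differed between protocols. Krt20, a keratin, alone held 7525 RPKM of this sum in cDNA fragmented small intestine, and the other 8 markers summed to 2538 and 4052 RPKM in small intestine and 3058 and 6339 RPKM in colon. Of these 8 genes 5 were higher in colon in the cDNA fragmented and 4 in the ribosomal RNA-depleted protocol, where Krt8 and Krt19 held most of the colon sum (2485 and 2441 RPKM) and Vil1 was lower in colon (796.5 and 237.2 RPKM in small intestine and colon). Smooth muscle markers (6 of 6 genes) were 4.17-fold and 10.1-fold higher in colon. Pancreatic acinar markers summed to 1052 RPKM in cDNA fragmented colon and 3079 RPKM in ribosomal RNA-depleted small intestine, against 18.8 RPKM in cDNA fragmented small intestine, where 5 of the 8 genes were at 0, and 298 RPKM in ribosomal RNA-depleted colon. Amy2a5 was at 0 in all 4 libraries. Cela1, an elastase, alone gave 18.3 RPKM of the sum in cDNA fragmented small intestine and 291 RPKM of that in ribosomal RNA-depleted colon. Their summed level was higher in colon in the cDNA fragmented and higher in small intestine in the ribosomal RNA-depleted protocol, and their part in the results for the 5 genes was not tested.

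The genes most like each member over the 4 libraries were found among 8228 genes with at least 20 reads in every library, as the Euclidean distance of log2(RPKM + 1) after each gene's mean over the libraries had been taken off. The nearest gene to Guca2a was Tstd1, at a distance of 0.27 (median over all genes 4.20), followed by Fgfbp1 (0.60) and 1110017F19Rik (0.62). The nearest to Guca2b was Rbp2, which encodes a retinol-binding protein of enterocytes, at 0.19 (median 6.36), followed by Ggt1 (0.94) and Mogat2 (1.09). Rbp2 had 4223, 84.6, 1070 and 27.8 RPKM in the order of the libraries above, close to Guca2b in each. Nearest to Gucy2c were Pola1 (0.06), Dusp12 (0.07) and Epcam (0.08), the last an adhesion molecule of epithelial cells, with a median of 1.52. Nearest to Prkg2 were Cdh17 (0.18), a cadherin of intestinal epithelium, AI597468 (0.21) and Synj2bp (0.24), with a median of 2.15. Nearest to Cftr were Pim2 (0.08), Tmem201 (0.08) and Akirin1 (0.09), with a median of 1.30. Distances are small for any gene that varies little, and with 4 libraries they describe these libraries only. Among the 5 genes themselves the hormones were farthest apart (8.45) and Gucy2c and Prkg2 closest (0.94).

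Around the 5 genes, 60 further genes of the pathway were counted, of which 52 were present in both libraries of a protocol. In the cDNA fragmented protocol 3 (5.77%) were called for small intestine and 7 (13.5%) for colon, against 2.81% and 3.25% of all genes. With 1 RPKM added to each level, the median log2 ratio (colon over small intestine) of the 52 genes was 0.16, against 0.19 over all genes. The ribosomal RNA-depleted protocol gave 6 (11.5%) and 8 (15.4%) calls, against 3.86% and 6.40%, with a median, taken in the same way, of 0.40 against 0.27. These genes were chosen with earlier results of these data known, so nothing about the pathway is read from their shares called.

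A list of 12 genes held other guanylate cyclases, natriuretic peptides and the receptors of these peptides, and 6 were present in both libraries. None was called in the cDNA fragmented protocol and 1 was called higher in colon in the ribosomal RNA-depleted protocol, against 3.25% and 6.40% of all genes called for colon. This was Gucy1b3, a subunit of soluble guanylate cyclase named after its values were seen, with 6 small intestine and 91 colon reads there. In the cDNA fragmented protocol it had 209 and 172 reads, a ratio of colon to small intestine of 0.746 (0.606 to 0.917) in the opposite direction. The gene with the highest level, Gucy1a3, another subunit of this enzyme, reached only 11.8 RPKM in any library. Of 13 genes for targets, breakdown and export of cyclic GMP, Pde2a, a phosphodiesterase stimulated by cyclic GMP, was the only one called, higher in colon in both protocols, against the same shares of all genes. It stood at 2.09 RPKM in small intestine and 16.3 RPKM in colon (7.79-fold, 6.75 to 9.04) in the cDNA fragmented, and at 5.44 and 52.7 RPKM (9.68-fold, 7.26 to 13.2) in the ribosomal RNA-depleted protocol. Pde9a, a phosphodiesterase for cyclic GMP, had the highest level of this list, with 53.8, 53.5, 30.7 and 56.7 RPKM in the order of the libraries above.

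Of 5 brush border scaffold genes none was called in the cDNA fragmented protocol and 3 were called higher in small intestine in the ribosomal RNA-depleted protocol, against 2.81% and 3.86% of all genes called in that direction. The median log2 ratios, with 1 RPKM added to each level, were -0.64, over 4 genes without Pdzk1, and -2.01, over all 5. These were Slc9a3r1, Pdzk1 and Ezr, the last 2 named after their values were seen. Ezr, which encodes ezrin, stood at 325 RPKM in small intestine and 60.8 RPKM in colon there. Slc9a3r1, which links Cftr to ezrin, had the highest level, with 133 and 56.2 RPKM in the cDNA fragmented and 455 and 112 RPKM in the ribosomal RNA-depleted libraries of small intestine and colon. Pdzk1, a further scaffold, had 8297 reads in cDNA fragmented small intestine and 2 in cDNA fragmented colon, and 292 and 3 in the other protocol. It was not called in the cDNA fragmented protocol since it had fewer than the 2 start points required for presence in colon.

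Of 14 transport genes beside Cftr, 1 was called higher in small intestine and 3 higher in colon in each protocol, with 13 present in both libraries. Of all genes 2.81% and 3.25% were called in the cDNA fragmented and 3.86% and 6.40% in the ribosomal RNA-depleted protocol. Slc26a6, an apical anion exchanger, was 164-fold and 49.1-fold higher in small intestine. Slc26a3, the chloride-bicarbonate exchanger of surface cells, was 6.66-fold and 8.12-fold higher in colon. Ano1, a calcium-activated chloride channel, was 13.5-fold and 25.3-fold higher in colon. Kcne3, a subunit of the basolateral potassium channel that supports chloride secretion, was 3.26-fold and 5.14-fold higher in colon. Best2, a bestrophin anion channel named after its values were seen, had 0 reads in both small intestine libraries and 178 and 119 reads in colon, and could not be called since it was not present in small intestine. Clcn2, another chloride channel named after its values were seen, was 2.94-fold and 1.76-fold higher in colon and was not called.

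Of 10 genes of the cyclic AMP route to Cftr, Adora2b, an adenosine receptor, was called higher in small intestine in both protocols (5.60-fold and 5.86-fold, with 24 and 7 reads in the ribosomal RNA-depleted libraries). Higher in colon were Adcy6 in the cDNA fragmented protocol and Vip and Prkacb in the ribosomal RNA-depleted protocol, of which Adcy6 and Prkacb are named after their values were seen. Of all genes 2.81% and 3.25% were called for small intestine and colon in the cDNA fragmented protocol and 3.86% and 6.40% in the other, for this list and the next. Adcy6, an adenylate cyclase, was 4.69-fold higher in colon in the cDNA fragmented protocol, against a ratio of 0.928 (0.814 to 1.06) in the other. Vip, a secretory neuropeptide, reached the highest level of the list in any library, in ribosomal RNA-depleted colon, with 29.7 and 38.8 RPKM in the cDNA fragmented and 12.6 and 84.3 RPKM in the ribosomal RNA-depleted libraries. Of 6 transcription factors, Hnf4g was 33.5-fold and 6.90-fold higher in small intestine and Cdx1 4.14-fold and 4.94-fold higher in colon. Cdx2, named after its values were seen, was called higher in colon in the cDNA fragmented protocol only (3.68-fold, against 0.497-fold in the other). Hnf4a reached the highest level of the list in any library, in ribosomal RNA-depleted colon, whereas Hnf4g stood above it in cDNA fragmented small intestine with 290.2 RPKM. Hnf4a had 89.0 and 111 RPKM in the cDNA fragmented and 253 and 301 RPKM in the ribosomal RNA-depleted libraries of small intestine and colon.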

How the data were processed

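The authors deposited matched reads of 4 SOLiD libraries, the reports of that matching and tables of exon and junction positions. Per the file headers, 35 colors per read had been matched with up to 3 mismatches to RefSeq exons and exon-exon junctions of mm9, and reads with more than 1 placement removed. No normalized values were used. Reads and start points counted here equalled those of the authors' reports in all 4 libraries.

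A read was given to the exon block that holds its start, with a tolerance of 3 bases. Reads that cross the end of a block have no place in it. Blocks were joined to genes by GENCODE M1 on mm9, which named 20791 of 20962 genes. Of the reads of the 5 genes without mismatch, 100% gave the mm9 bases at their position once decoded. Presence required more than 0.01 RPKM and no fewer than 2 start points. Calculations used Python 3.11.15, numpy 2.4.6, pandas 2.3.3 and scipy 1.17.1, and limma 3.58.1 with a trend in the prior variance. Calling by the 3-fold rule and intervals of ratios were tested on simulated counts with independent Poisson error only. Amplified or piled-up reads were not simulated, so this cannot tell how the intervals hold for them. Exact intervals of ratios are conditional binomial, those of levels Poisson.

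The 5 genes and all gene and marker lists were chosen with earlier results of these data known. Named from the pathway lists were genes called in the same direction in both protocols and the gene with the highest RPKM of each list, and for likeness the 3 nearest genes. Of the genes this rule names, 1 is not reported here. Of the 13 marker lists, summed levels of colon over those of small intestine, in the cDNA fragmented and ribosomal RNA-depleted protocol, were 2.34 and 1.49 for goblet cells, 3.58 and 3.15 for enteroendocrine cells, 0.00484 and 0.0261 for Paneth cells, 0.0567 and 0.100 for crypt and dividing cells (0.600 and 0.528 without Olfm4), 0.700 and 1.08 for tuft cells, 0.905 and 1.46 for immune cells, 0.437 and 0.0935 for proximal small intestine and 53.3 and 14.2 for distal gut. Some sums hide genes of opposite direction. Genes higher in colon numbered 2 of 3 for tuft cells in each protocol, of which only Dclk1 was higher in both. In both protocols they numbered 1 of 2 for proximal small intestine (Cdkn1c) and 1 of 5 for crypt and dividing cells (Ascl2). For immune cells they numbered 2 of 5 in the cDNA fragmented and 3 of 5 in the ribosomal RNA-depleted protocol. In the same order they numbered 5 and 4 of 6 for enteroendocrine cells. For goblet cells they numbered 6 and 5 of the 6 genes found out of 7 listed. The alternatives that moved a value stand in the closing section. The remaining ones kept every value within its interval or count. They were adding junction reads, thinning the deeper library, a penalty of 0.1 RPKM and a 2-fold rule for calls. A presence rule with a minimum of 5 reads was also tried. In the ribosomal RNA-depleted protocol, so was counting reads of the gene's own strand alone.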

Additional observations from a re-analysis of the deposited data

How the results depend on the processing

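No analysis paired by mouse was possible because the labels give no replicate numbers and no source used here says which libraries share a mouse. Ratios are colon over small intestine, and counting intervals are so narrow in the cDNA fragmented libraries that many alternatives fell outside them. Of 179 values under alternatives 112 stayed within the interval or the count. Guca2b kept its call for small intestine in both protocols under all alternatives but start points in the cDNA fragmented protocol. With size factors by the median of ratios, Guca2a, Guca2b, Gucy2c, Prkg2 and Cftr gave 6.53, 0.0140, 0.486, 0.205 and 0.885 in the cDNA fragmented protocol, where Cftr turned, and Guca2a, Gucy2c, Prkg2 and Cftr gave 4.51, 0.681, 0.623 and 0.668 in the ribosomal RNA-depleted protocol. Scaled by epithelial markers, the 5 genes in the same order gave 16.6, 0.0355, 1.23, 0.519 and 2.24, where Gucy2c turned and only 1 gene was called higher in small intestine, since Prkg2 lost its call, and the 4 genes of the other protocol gave 4.66, 0.704, 0.644 and 0.691. This scaling raised the log2 ratio of every gene by 0.94 in the cDNA fragmented protocol and lowered it by 0.29 in the other, and Krt20 alone held 74.9% of the marker reads of cDNA fragmented small intestine. All genes called then became 223 for small intestine and 2065 for colon in the cDNA fragmented protocol, and 675 and 544 in the other. Scaled by the markers without Krt20, chosen after seeing the data, the 5 genes gave 7.94, 0.0170, 0.590, 0.249 and 1.08, with no call changed and all genes called at 461 for small intestine and 434 for colon, and 4.09, 0.0157, 0.618, 0.565 and 0.606 in the other protocol, where all genes called became 814 and 440. In the limma fit with protocol as a block, 1 of the 5 genes was past the threshold, also with 0.1 RPKM added or with size factors, and 2 with estimated prior degrees of freedom, where all genes called became 565 for small intestine and 1133 for colon in place of 150 and 110. The adjusted p of Guca2b ranged from 2.15e-10 to 0.0159 and that of Guca2a from 0.000388 to 0.104 over these settings. With size factors the genes called for colon became 72. With start points in place of reads the 5 genes gave 0.969, 0.538, 0.789, 0.455 and 1.08, with 0 called in either direction, while all genes called were 368 (2.42%) for small intestine and 513 (3.38%) for colon, and in the ribosomal RNA-depleted protocol Guca2a gave 1.54, with 0 called for colon against 638 (4.85%) of all genes, and Guca2b 0.0822. Guca2a over Guca2b then became 1.06, 1.90, 0.541 and 10.1 in cDNA fragmented small intestine and colon and ribosomal RNA-depleted small intestine and colon. Start points are bounded by the length of a gene. Counted on both strands, Guca2a used 81.7% and 82.9% of all it has in the cDNA fragmented and 8.66% and 22.8% in the ribosomal RNA-depleted libraries. Guca2b used 77.2% and 43.5% and then 16.0% and 2.25%. Nearly all ribosomal RNA-depleted reads lay on the strand of the gene, so the shares there understate how near the ceiling they were. Without the exon block with most reads the 5 genes gave 8.78, 0.0172, 0.607, 0.907 and 1.04, with 1 called for small intestine (Prkg2 lost), Guca2a gave 4.39 in the ribosomal RNA-depleted protocol, and Guca2a over Guca2b became 0.599, 306, 0.297 and 55.3. In the last 1000 exonic bases Gucy2c, Prkg2 and Cftr gave 0.735, 0.242 and 1.32 in the cDNA fragmented protocol. At most 1 color mismatch gave 7.91 for Guca2a in the cDNA fragmented protocol and 0.518 for Guca2a over Guca2b in its small intestine. Coding bases only, chosen after seeing the data, gave 9.20, 0.0200, 0.618, 0.899 and 1.07 with 1 called for small intestine, and 4.85 for Guca2a in the ribosomal RNA-depleted protocol. With 51 reads of Guca2b in ribosomal RNA-depleted colon, depth limits its ratio there, and differences under about the width of the intervals were not detectable at this depth.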
